A study of Homo sapiens with 18 samples.

Results

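The genes described are MDM2, GADD45A, GADD45B, SESN1, PLK3, PPM1D, TP53INP1, BTG2 and GDF15, targets of the transcription factor p53 and of growth arrest signalling, which were picked by symbol from the 43735 genes of the count table. All 9 were in the table, and 8 had enough reads to be tested. GDF15 was the exception, with 0 to 6 reads per library. RNA was sequenced from a pair of human multiple myeloma lines, the glucocorticoid-sensitive MM1S and its resistant counterpart MM1R. In each line, cells were left untreated, were given 5 µM RSL3 for 3 h, or were given 2 µM ferrostatin-1 (Fer-1) for 2 h and then 5 µM RSL3 for 3 h. RSL3 inhibits GPX4, the enzyme that detoxifies lipid peroxides in membranes, and Fer-1 traps the radicals that propagate lipid peroxidation. This gave 6 groups of 3 libraries, in which replicates 1, 2 and 3 are passages 4, 6 and 7 of MM1R cells and passages 16, 22 and 23 of MM1S cells. No group received Fer-1 alone, and each line is a single model of the disease.

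p53 is held at a low level in unstressed cells because MDM2, a ubiquitin ligase and itself a p53 target, marks it for degradation. After DNA damage and other stress, p53 accumulates and switches on genes that stop the cell cycle, limit growth or start apoptosis. Several of these genes also answer to stress pathways that do not need p53, and p53 targets include regulators of cystine uptake and lipid oxidation that bear on ferroptosis, the iron-dependent cell death that RSL3 induces. In hg19, the growth arrest genes lie at chr1:68150884-68154017 (GADD45A), chr19:2476120-2478257 (GADD45B) and chr1:203274619-203278730 (BTG2), all on the plus strand. The regulators of p53 lie at chr12:69201957-69239324 (MDM2) and chr17:58677554-58743641 (PPM1D), also on the plus strand. PLK3 (chr1:45266049-45271662) and GDF15 (chr19:18485541-18499986) are on the plus strand and SESN1 (chr6:109305512-109416049) and TP53INP1 (chr8:95938200-95961606) on the minus strand. The count table gives 1 value per gene and library, so that no value belongs to a single exon or transcript.

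Total counts per library lay between 17635438 and 19368343. The 7 plasma cell markers examined were all expressed in untreated cells, from 41.0 CPM (counts per megaread of the TMM-scaled library) for CD38 to 1648 CPM for XBP1, while the B cell genes MS4A1 and PAX5 and the myeloid genes CD14 and LYZ stayed at 0 to 0.311 CPM and the platelet gene PPBP at 0. Among the other markers, the T cell gene CD3E and the erythroid gene HBB reached 11.5 and 8.28 CPM in untreated cells, and HBB reached 12.7 CPM in an RSL3 library of MM1R cells. Some libraries stood apart. The Fer-1 and RSL3 library of MM1R passage 6 carried genes that are at least 8-fold higher in the other line at 52.6% of the MM1S level (median of 16 genes), whereas the other MM1R libraries were at -0.55% to 3.19%. The 3 MM1S libraries of passage 16 lay at 8.79% to 10.8% of the MM1R level and the other MM1S libraries at -0.72% to -0.18%. In addition, the MM1S RSL3 library of passage 16 had the largest response among the 6 passages. This was read over 96 genes that were higher after RSL3 in both lines, at an FDR under 0.05 and a log2 change over 1. Because the genes were chosen from the same data, that library included, the values are a description with no test. The median rise on the log2 scale was 2.65 in passage 16, against 1.20 and 1.24 in the other MM1S passages and 1.21 to 2.11 in MM1R cells. Values without these libraries are given beside the results they bear on most. In bulk RNA, fewer cells expressing a gene cannot be told apart from less RNA per cell.

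**Figure D1:**
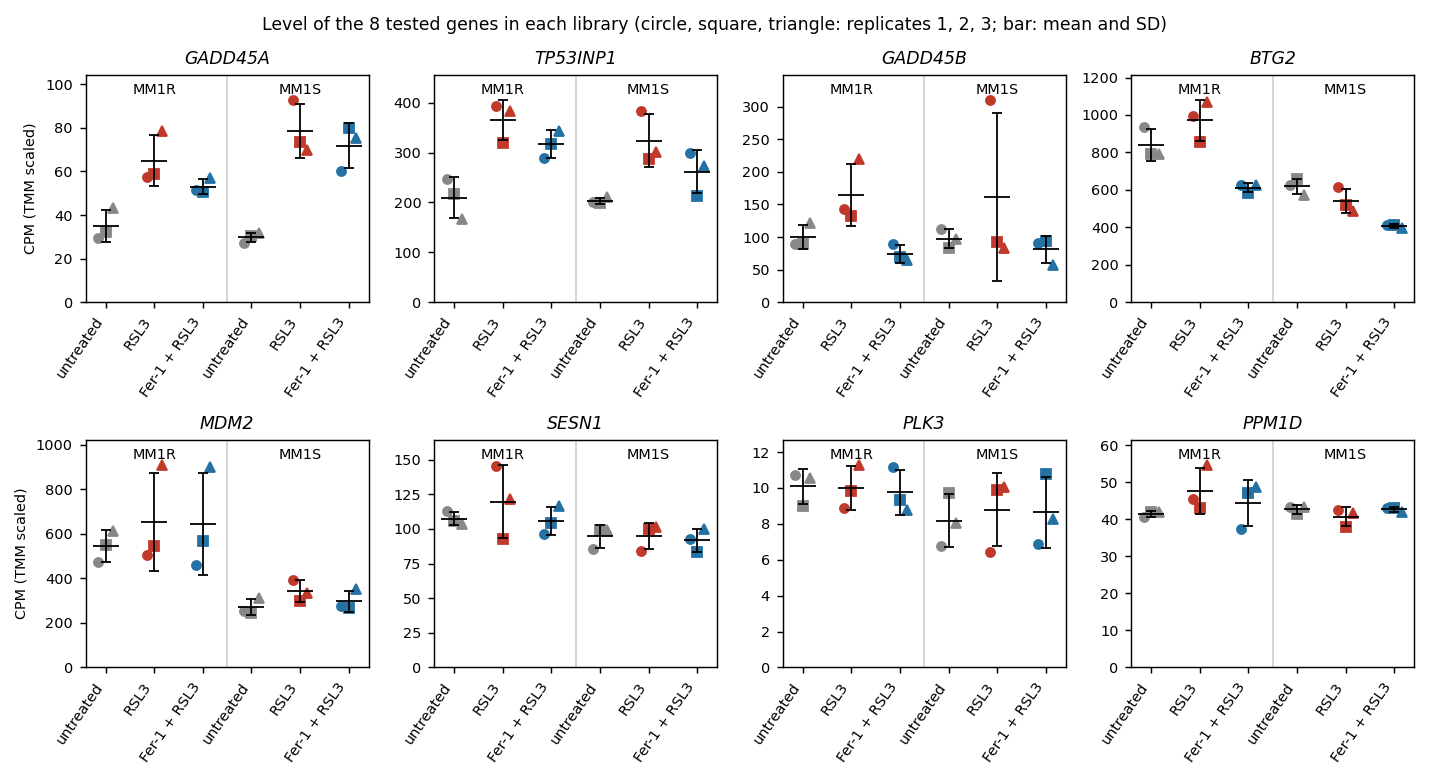
Expression (CPM, TMM scaled, linear axis from 0) of the 8 tested genes in each of the 18 libraries, with the mean and SD of each group of 3. GADD45A and TP53INP1 are higher in every RSL3 library than in any untreated library of the same line, BTG2 is lowest in the Fer-1 and RSL3 libraries of each line, and MDM2 is higher in MM1R than in MM1S cells.

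Without treatment, the genes differed widely in level. Per kilobase of exon, BTG2, an antiproliferative protein that recruits the machinery that shortens mRNA tails, was the most abundant in both lines at 305 ± 30.5 CPM per kb (MM1R) and 224 ± 14.9 CPM per kb (MM1S) (SD, n = 3). MDM2 came next in MM1R cells at 65.7 ± 8.53 CPM per kb, but stood lower in the order in MM1S cells at 32.5 ± 4.27 CPM per kb. GADD45B and TP53INP1 followed at 46.8 ± 8.63 and 37.1 ± 7.21 CPM per kb in the MM1R line, where they overlapped within 1 SD, and at 45.6 ± 6.88 and 36.0 ± 1.07 CPM per kb in MM1S cells, where TP53INP1 and MDM2 overlapped. GADD45A and SESN1 lay lower, at 18.2 ± 3.87 and 14.8 ± 0.654 CPM per kb in MM1R cells (overlapping within 1 SD) and at 15.5 ± 1.14 and 13.0 ± 1.12 CPM per kb in MM1S cells. PPM1D (4.41 ± 0.0907 and 4.53 ± 0.122 CPM per kb in MM1R and MM1S) and PLK3 (3.03 ± 0.290 and 2.46 ± 0.442 CPM per kb) were the lowest of the tested genes.

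GDF15, a secreted stress cytokine of the TGF-beta family, was near absent in every group. Its reads in the MM1R line were 1, 0 and 0 without treatment, 2, 0 and 0 after RSL3 and 0, 4 and 3 when Fer-1 was given first. The MM1S line had 0, 2 and 4 reads without treatment, 1, 6 and 5 after RSL3 and 2, 5 and 6 when Fer-1 was given first. These numbers are close to the 3 reads that a count of 0 allows, so no fold change is given. A change of GDF15 within this range was not detectable at this depth, and no library held more than 6 reads.

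Comparing untreated MM1R with untreated MM1S cells shows how the libraries of the resistant and the sensitive line differ at the start. Every MM1R passage had a lower number than every MM1S passage, so line and passage number cannot be told apart. MDM2 was the only tested member that was a DEG between the lines, where a DEG is a gene that passes an FDR of 0.05 in edgeR's quasi-likelihood test and differs by more than 1 on the log2 scale in either direction. In all, 1 of 8 members against 4.64% of the 14281 tested genes was a DEG. The MM1R libraries held MDM2 at 473, 548 and 615 CPM, whereas the MM1S libraries held it at 254, 246 and 311 CPM, without overlap. The difference was 2.02-fold (log2 1.01 ± 0.24 SE, FDR = 0.0121). BTG2 was also higher in MM1R cells, at 937, 793 and 789.5 CPM against 624, 656 and 574 CPM (log2 0.44 ± 0.11 SE, FDR = 0.0185), below the fold threshold. With the FDR alone, 2 of 8 members were called, against 10.5% of all genes. Together with SESN1, these were the 3 members whose untreated libraries did not overlap between the lines, against 32.4% of all genes. For the other 6 members, the log2 differences ran from -0.04 to 0.30 and had an FDR of 0.393 or more.

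Leaving out MM1R replicate 3, or MM1S replicate 1 or 2, took MDM2 just below the thresholds for a DEG (log2 0.92, 0.97 and 0.96, with an FDR of 0.0565, 0.0367 and 0.0648). BTG2 no longer passed the FDR without MM1R replicate 1 or MM1S replicate 3 (log2 0.36 and 0.41, FDR = 0.0661 and 0.0897). The gene CPM (carboxypeptidase M) overlaps MDM2 by 3348 bp on the opposite strand and was also higher in MM1R cells, but at 4.42 ± 0.804 CPM against 0.603 ± 0.398 CPM (SD, n = 3), far below the level of MDM2. Whether counting used the strand is not given in the sources used here.

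MDM2 has a second transcription start inside the gene, whose promoter is known for its p53 response. The 250 bases before that start are shown because they hold the closest matches to a p53 site among the promoters examined, with letters from RefSeq (GRCh38.p14 table) placed at chr12:69202547-69202796 on the plus strand of hg19 by an exact and unique match. Capitals mark, in order, TGACTCA with the following 2 bases, a p53 site with 2 mismatches (94 to 75 bases before the start) and a p53 site with 3 mismatches (56 to 37 bases before it).
MDM2 second start: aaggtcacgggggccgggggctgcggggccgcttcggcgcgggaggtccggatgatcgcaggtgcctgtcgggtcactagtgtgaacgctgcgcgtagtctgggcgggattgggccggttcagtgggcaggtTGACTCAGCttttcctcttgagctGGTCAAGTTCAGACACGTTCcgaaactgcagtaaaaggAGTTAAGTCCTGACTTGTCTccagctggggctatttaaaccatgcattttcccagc
Promoter windows of 300 bases (250 before to 50 after a start) were examined for 7 of the 9 members, with 12 starts in all. No window of GADD45A or TP53INP1 was examined, so whether their promoters hold a p53 site was not tested. A p53 site with at most 2 mismatches to the consensus occurs in 0.649% and one with at most 3 in 5.2% of all 35116 promoter windows in the table, on either strand. SESN1 holds a site with 3 mismatches, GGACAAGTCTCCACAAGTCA, at 49 to 30 bases before a start inside the gene, and GDF15 holds one with 3 mismatches just after its start. The other motifs searched on both strands were TGANTCA (7.71% of windows, found in MDM2, where it overlaps TGACNNNGC, which 13.3% of windows hold and which also occurs in SESN1), TGACGTCA (1.85%, found in PPM1D 61 to 54 bases before the start), TGATGNAA (3.62%, found in PLK3), GAANNTTC (6.77%, found in none of the 12 windows), the 10-base element of which a p53 site holds a pair (6.63%, exact in SESN1 only), the CArG box (1.29%, found in none), TATAAA (11.5%, found in GADD45B and GDF15) and GGGCGG (45.0%, found in all but GADD45B). A match describes letters only and does not show that a factor binds.

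The comparison of RSL3-treated with untreated cells asks which of these genes respond within 3 h of GPX4 inhibition. GADD45A rose in both lines, and TP53INP1 rose less but also in both. No member fell, and MDM2, SESN1, PLK3 and PPM1D, which include both direct negative regulators of p53 in the set, passed no threshold within a line. In MM1R cells, 0 of 8 members were DEGs, against 1.2% of all genes, and 2 of 8 (GADD45A and TP53INP1) passed the FDR alone, against 3.36%. In MM1S cells, 1 of 8 (GADD45A) was a DEG, against 1.61%, and the same pair passed the FDR alone, against 3.67%. The count of 0 in MM1R cells was also 0 with DESeq2 and with limma. By the edgeR test across all genes, 2 members had an unadjusted p under 0.05 there, against 18.5% of all genes. The median log2 fold change of the 8 members was 0.24 in MM1R and 0.22 in MM1S cells, beside 0.00 for all genes in each line.

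GADD45A encodes a small stress-induced protein that binds PCNA and cyclin-dependent kinase complexes and slows entry into mitosis. In MM1R cells, it stood at 29.4, 32.1 and 43.4 CPM without treatment and at 57.6, 58.7 and 78.3 CPM after RSL3. In MM1S cells, the levels were 27.4, 30.2 and 31.7 CPM without treatment and 92.8, 73.4 and 69.7 CPM with RSL3. Every RSL3 library was above every untreated library of its line. The rise was 1.86-fold in MM1R cells (95% interval 1.46 to 2.36, log2 0.89 ± 0.17 SE, FDR = 0.00923), short of the fold threshold, and 2.64-fold in MM1S cells (2.07 to 3.37, log2 1.40 ± 0.17 SE, FDR = 0.000739), where it ranked 4 of all genes by p. Within passages, the gene was higher after RSL3 in 6 of 6, by 0.85 to 1.76 on the log2 scale. Averaged over both lines, the change was 1.15 ± 0.12 SE (FDR = 2.72e-05), and GADD45A was the only DEG among the 8 members, against 3.24% of all genes.

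TP53INP1 encodes a stress-induced nuclear protein that promotes p53 phosphorylation and also takes part in autophagy. Its untreated levels were 246.5, 216 and 166 CPM in MM1R and 199.9, 199.8 and 210 CPM in MM1S cells, and its RSL3 levels 393, 319.7 and 384 CPM and 384, 287 and 300.2 CPM. As for GADD45A, the RSL3 and untreated libraries did not overlap in either line. It rose 1.74-fold in MM1R (log2 0.80 ± 0.16 SE, FDR = 0.0115) and 1.59-fold in MM1S cells (log2 0.67 ± 0.16 SE, FDR = 0.0256), and by 0.74 ± 0.11 SE over both lines (FDR = 0.000453). With it, 2 of 8 members passed the FDR alone over both lines, against 15.5% of all genes. TP53INP1 lies wholly opposite NDUFAF6 on the other strand (23407 bp). NDUFAF6 did not share the rise, with log2 fold changes of -0.21 ± 0.13 and -0.01 ± 0.13 SE in MM1R and MM1S cells at 15.8 to 18.9 CPM in all groups.

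GADD45B, a relative of GADD45A that also answers to NF-kappaB and TGF-beta signals, had no call. In MM1R cells, it stood at 89.4, 89.3 and 121 CPM without treatment and at 143, 133 and 219.8 CPM with RSL3 (log2 0.72 ± 0.38 SE, FDR = 0.329), and the groups did not overlap. In MM1S cells, the untreated levels were 112, 82.6 and 97.5 CPM and the RSL3 levels 311, 92.4 and 82.8 CPM. Only the passage 16 library was above the untreated range there. The fitted change in MM1S cells was 0.73 ± 0.38 SE (FDR = 0.305) with this library and -0.15 ± 0.24 SE (FDR = 0.882) without it. Leaving that library out of the fit also narrowed the error for MM1R cells, where GADD45B then passed the FDR alone (log2 0.73 ± 0.21 SE, FDR = 0.0433). Over both lines, GADD45B differed by 0.73 ± 0.27 SE (FDR = 0.0742), and it passed the FDR alone without the MM1S RSL3 library of passage 22 or 23 (log2 0.87 and 0.88, FDR = 0.0334 and 0.0207) or with passage as a replicate block (log2 0.61, FDR = 0.0435).

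BTG2 passed no threshold in either line (log2 0.21 ± 0.11 SE in MM1R, FDR = 0.335, and -0.19 ± 0.11 SE in MM1S, FDR = 0.372). Within passages, it was higher after RSL3 in 3 of 3 in the MM1R line (0.08, 0.11 and 0.44 on the log2 scale) and lower in 3 of 3 in the MM1S line (-0.02, -0.33 and -0.24), and with passage as a replicate block the FDR was 0.126 and 0.145. MDM2 stood at 504, 547 and 908.5 CPM after RSL3 in MM1R libraries, where passage 7 alone was above the untreated range, and at 394, 298 and 336 CPM in MM1S libraries. Its log2 changes were 0.26 ± 0.24 and 0.34 ± 0.24 SE (95% intervals -0.24 to 0.76 and -0.16 to 0.84), which leave room for a rise of up to 1.69-fold and 1.79-fold. Over both lines, its change of 0.30 ± 0.17 SE (FDR = 0.242) passed the FDR alone only with passage as a replicate block (log2 0.28, FDR = 0.0292). PPM1D, a phosphatase that switches off p53 and its upstream kinases, was at 41.5 ± 0.853 CPM without treatment and 47.6 ± 6.14 CPM after RSL3 in the MM1R line (SD, n = 3), with no overlap but no call (log2 0.20 ± 0.11 SE, FDR = 0.363). The MM1S values were 42.6 ± 1.15 and 40.7 ± 2.51 CPM. SESN1, a sestrin that restrains mTORC1, changed by 0.16 ± 0.14 and 0.01 ± 0.14 SE on the log2 scale, and the stress-responsive kinase PLK3 by -0.01 ± 0.20 and 0.11 ± 0.21 SE. Counting groups that did not overlap, 4 of 8 members did so in MM1R cells (GADD45A, GADD45B, TP53INP1 and PPM1D, all higher with RSL3), against 25.7% of all genes in either direction, and 2 of 8 in MM1S cells (GADD45A and TP53INP1), against 24.9%.

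**Figure D2:**
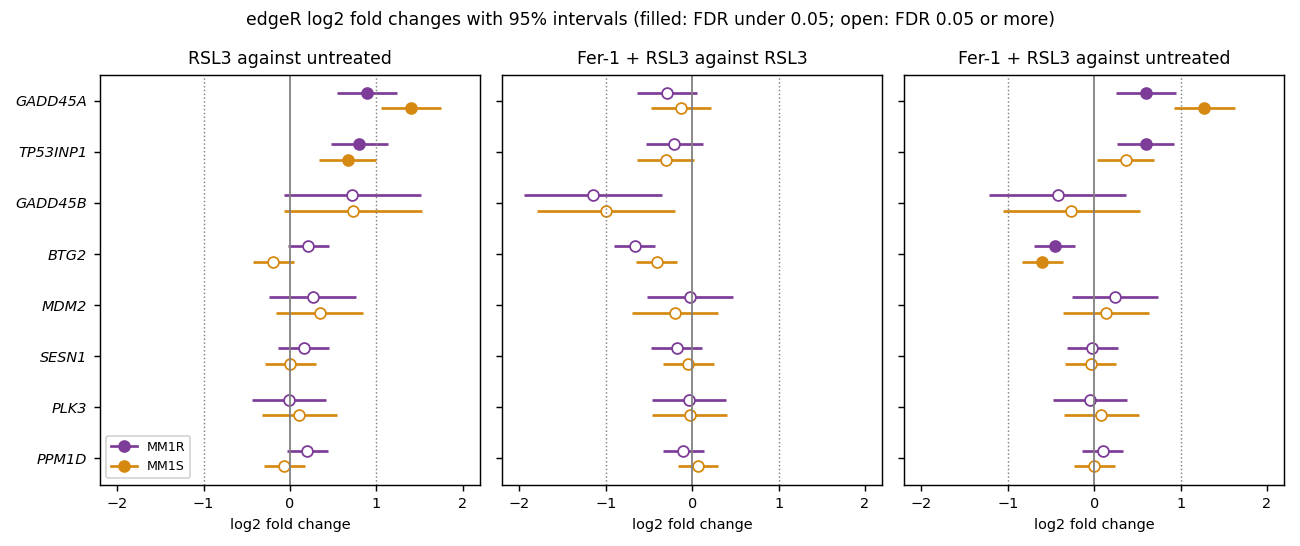
Fitted log2 fold changes (x axis) of the 8 tested genes in MM1R and MM1S cells for the 3 comparisons within a line, with 95% intervals, and dotted lines at a log2 fold change of 1 in either direction. GADD45A and TP53INP1 are above 0 after RSL3 in both lines, and BTG2 is below 0 in both lines when Fer-1 and RSL3 cells are compared with untreated cells. MDM2, SESN1, PLK3 and PPM1D have intervals that hold 0 in every panel.

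The GADD45A call in MM1S cells held in all 18 fits that left out a library (log2 1.27 without the strongly responding RSL3 library of passage 16, FDR = 0.00155) but not when only the MM1S untreated and RSL3 libraries were fitted (log2 1.40, FDR = 0.0644). In MM1R cells, leaving out untreated replicate 3 made GADD45A a DEG (log2 1.08, FDR = 0.00824), and leaving out untreated replicate 1 took its FDR to 0.0565. The TP53INP1 rise no longer passed in the MM1R line when RSL3 replicate 1 or untreated replicate 3 was left out (FDR = 0.0596 and 0.0537), nor in the MM1S line without RSL3 replicate 1 (log2 0.53, FDR = 0.124) or without untreated replicate 1, 2 or 3 (0.114, 0.0874 and 0.0755). It also did not pass in the MM1S line when only the MM1S untreated and RSL3 libraries were fitted (log2 0.67, FDR = 0.164).

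The difference between the lines in their response to RSL3 was tested as an interaction. With an FDR and fold threshold or with the FDR alone, 0 of 8 members passed, against 0% of all genes in each case. GADD45A differed by -0.51 ± 0.23 SE (MM1R minus MM1S, log2 scale) and BTG2 by 0.40 ± 0.16 SE, both with an FDR of 1.00 in edgeR. These 2 were the members with an unadjusted p under 0.05 in the test across all genes, as were 222 genes in all, and DESeq2 and limma also gave 0 calls. A larger rise of GADD45A in MM1S cells was therefore not shown.

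The comparison of Fer-1 and RSL3 with RSL3 alone asks which of these levels the ferroptosis inhibitor brings back. It shares the RSL3 libraries with the comparison above, so the 2 are not independent. BTG2 and GADD45B had the largest fitted differences, lower with Fer-1 in both lines, while the differences of GADD45A and TP53INP1 were smaller. With passage as a replicate block, BTG2 passed the FDR alone in MM1R cells (log2 -0.66, FDR = 0.0102). Line by line in the fit without that block, 0 of 8 members were DEGs and 0 passed the FDR alone in MM1R cells, where both rules called 0% of all genes. The same held in MM1S cells, again against 0%. DESeq2 and limma called none of the members in either line, while 2 members in each line (GADD45B and BTG2) had an unadjusted edgeR p under 0.05 by the test across all genes, as did 881 genes in MM1R and 821 in MM1S cells. Averaged over both lines, 0 of 8 members were DEGs, against 0.056% of all genes, and 1 of 8 (BTG2) passed the FDR alone, against 0.119%. The Fer-1 and RSL3 libraries did not overlap with the RSL3 libraries for 3 of 8 members in MM1R cells (GADD45A, GADD45B and BTG2, all lower with Fer-1), against 13.4% of all genes, and for 1 of 8 in MM1S cells (BTG2), against 8.79%.

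In the MM1R line, BTG2 stood at 992, 854 and 1069 CPM after RSL3 and at 624, 586 and 627 CPM when Fer-1 came first. In the MM1S line, the levels were 613, 522 and 487 CPM after RSL3 and 411, 412 and 397 CPM when Fer-1 came first. Every Fer-1 and RSL3 library was below every other library of its line, and the level was lower than that of RSL3 in 6 of 6 passages. The log2 difference was -0.67 ± 0.11 SE in MM1R cells (FDR = 0.123, the second of all genes by p) and -0.41 ± 0.11 SE in MM1S cells (FDR = 0.783). Over both lines, BTG2 fell by 0.54 on the log2 scale (± 0.08 SE, FDR = 0.0150), but it did not pass when only the groups compared were fitted (log2 -0.54, FDR = 0.0957). When each passage was fitted as a replicate block, the MM1R difference of -0.66 passed the FDR (0.0102), still under the fold threshold, and it also passed without the MM1S RSL3 library of passage 16 (log2 -0.68, FDR = 0.0116). The fall over both lines did not pass without any 1 of 3 Fer-1 and RSL3 libraries. Its FDR was 0.0539 without the MM1R library of passage 6 that carried MM1S-type expression (log2 -0.52), 0.0668 without the MM1R library of passage 7 and 0.0903 without the MM1S library of passage 23.

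The 250 bases before the BTG2 start are shown as the promoter of the member that moved most steadily with Fer-1, at chr1:203274397-203274646 on the plus strand of hg19. They hold 3 copies of GGGCGG or its complement and no match to any other motif searched, so that no capitals appear.
BTG2: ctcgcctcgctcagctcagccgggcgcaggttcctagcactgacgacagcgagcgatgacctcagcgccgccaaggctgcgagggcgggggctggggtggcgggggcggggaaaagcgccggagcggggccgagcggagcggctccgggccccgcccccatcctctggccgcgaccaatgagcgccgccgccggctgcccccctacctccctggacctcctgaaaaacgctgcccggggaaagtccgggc

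GADD45B had the largest fitted drop with Fer-1, but its spread was wide. In MM1R cells, it stood at 143, 133 and 219.8 CPM with RSL3 and at 89.9, 69.4 and 64.1 CPM when Fer-1 came first. In the MM1S line, Fer-1 and RSL3 gave 91.2, 94.2 and 57.8 CPM, against 311 CPM in the RSL3 library of passage 16 and 92.4 and 82.8 CPM in the other RSL3 libraries. The log2 differences were -1.15 ± 0.38 SE in MM1R (FDR = 0.650) and -0.997 ± 0.38 SE in MM1S cells (FDR = 0.801), and -1.07 ± 0.27 SE over both lines (FDR = 0.111). Without the MM1S RSL3 library of passage 16, the difference in MM1S cells was -0.11 ± 0.24 SE, and GADD45B became a DEG in MM1R cells (log2 -1.16, FDR = 0.0266). The difference over both lines made it a DEG without the MM1S RSL3 library of passage 22 or 23 (log2 -1.21 and -1.23, FDR = 0.0494 and 0.0253), and it passed the FDR alone with passage as a replicate block (log2 -0.95, FDR = 0.0405). Without the Fer-1 library of passage 6, the MM1R difference was -1.10 ± 0.45 SE.

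GADD45A was 0.29 ± 0.16 SE lower on the log2 scale with Fer-1 in MM1R cells (FDR = 0.835), at 51.5, 50.6 and 57.1 CPM, which lay below the RSL3 libraries but above the untreated ones. In MM1S cells, it was at 60.3, 80.0 and 75.4 CPM, a log2 difference of -0.13 ± 0.16 SE (95% interval -0.47 to 0.21) that turned to 0.01 without the RSL3 library of passage 16. TP53INP1 was lower with Fer-1 than with RSL3 in 6 of 6 passages, by 0.21 ± 0.16 and 0.31 ± 0.16 SE on the log2 scale in MM1R and MM1S cells (FDR = 0.889 and 0.875). Without the MM1R Fer-1 library of passage 6, the MM1R differences from RSL3 were -0.26 ± 0.19 SE for GADD45A and -0.21 ± 0.18 SE for TP53INP1. MDM2, SESN1, PLK3 and PPM1D differed by -0.20 to 0.07 on the log2 scale, with an FDR of 0.893 or more.

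**Figure D3:**
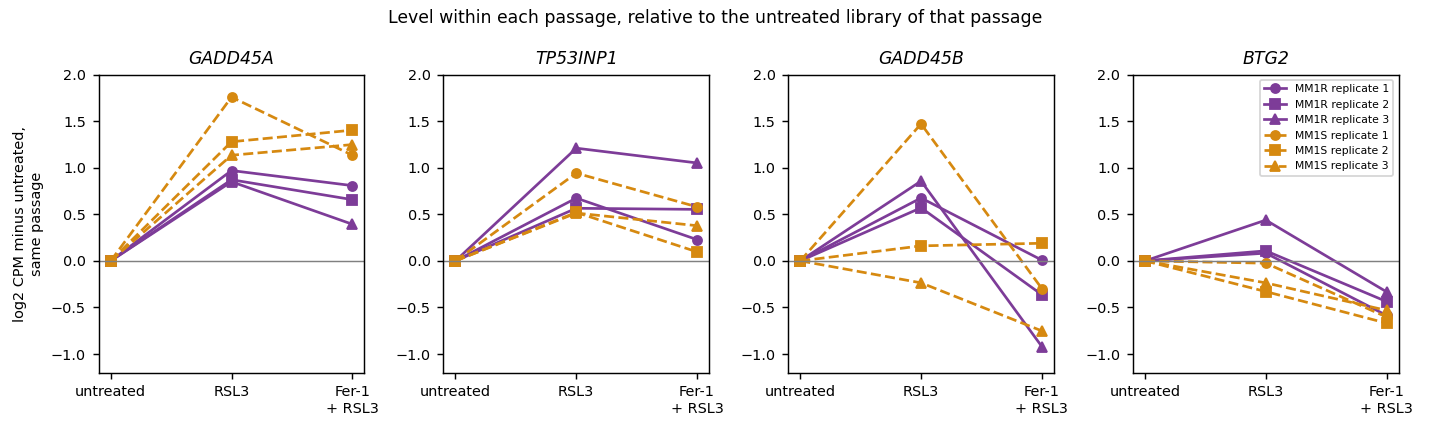
Log2 CPM of GADD45A, TP53INP1, GADD45B and BTG2 relative to the untreated library of the same passage, with a line for each of the 3 passages of each cell line. GADD45A and TP53INP1 stay above 0 in 6 of 6 passages with and without Fer-1, BTG2 ends below 0 in 6 of 6 passages, and GADD45B shows its largest rise, 1.47, in passage 16 of MM1S cells.

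Cells given Fer-1 before RSL3 still differed from untreated cells in some members. GADD45A remained higher, at a 1.52-fold level in MM1R (log2 0.60 ± 0.16 SE, FDR = 0.0303) and a 2.42-fold level in MM1S cells (log2 1.27 ± 0.17 SE, FDR = 0.000487), and no library of the compared groups overlapped. TP53INP1 was higher in MM1R cells (log2 0.60 ± 0.16 SE, FDR = 0.0260), whereas its difference of 0.37 ± 0.16 SE in MM1S cells had an FDR of 0.207. BTG2 fell below its untreated level in both lines, by 0.46 on the log2 scale in MM1R (± 0.11 SE, FDR = 0.0185) and by 0.60 in MM1S cells (± 0.11 SE, FDR = 0.00530), and was lower in 6 of 6 passages. In MM1R cells, 0 of 8 members were DEGs, against 2.16% of all genes, and 3 of 8 passed the FDR alone, against 9.22%. The count of DEGs was 0 with DESeq2 and limma as well. By the edgeR test across all genes, 3 members had an unadjusted p under 0.05, against 24.6% of all genes. In MM1S cells, 1 of 8 (GADD45A) was a DEG, against 1.37%, and 2 of 8 passed the FDR alone, against 4.61%. The groups did not overlap for 3 of 8 members in each line, GADD45A, TP53INP1 and BTG2, against 30.6% of all genes in MM1R and 28.3% in MM1S cells. Without the MM1R Fer-1 library of passage 6, the MM1R values were 0.63, 0.59 and -0.43 for GADD45A, TP53INP1 and BTG2, with an FDR of 0.0668, 0.0704 and 0.0734. The MM1R calls were lost for GADD45A also without Fer-1 and RSL3 replicate 1 or 3 or untreated replicate 1 or 2 (log2 0.49 to 0.62, FDR = 0.0635 to 0.122), for TP53INP1 without Fer-1 and RSL3 replicate 3 or untreated replicate 2 or 3 (log2 0.45 to 0.62, FDR = 0.0700 to 0.114) and for BTG2 without untreated replicate 1 (log2 -0.37, FDR = 0.0640). The RSL3 comparison above shares the untreated libraries with this one.

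To place the members in the wider pathway, 3 further lists were read from the same fits: 10 regulators and partners of p53, 30 other direct p53 targets (28 tested) and 15 paralogs of the members (14 tested). After RSL3, 0 of 10 regulators were DEGs in either line by edgeR. An unadjusted edgeR p under 0.05 was found for 1 in MM1R and 2 in MM1S cells, against 18.5% and 19.5% of all genes. Of the other p53 targets, 2 of 28 were DEGs in each line, both higher, where 1.2% and 1.61% of all genes were DEGs in MM1R and MM1S cells, and the list's median log2 fold change was 0.03 in MM1R and 0.06 in MM1S cells. They were BBC3 and PMAIP1, which encode the BH3-only apoptosis inducers PUMA and NOXA. The remaining 26 were not DEGs in either line. By the fit, 16 of the 28 were higher and 12 lower after RSL3 in each line. Among those not called was the cell cycle inhibitor CDKN1A, named here after its values were seen, at a higher level in 6 of 6 passages. Others of the list, such as ZMAT3, POLH and CCNG1, likewise named after their values were seen, were at a lower level after RSL3 in every passage. In MM1R cells, CDKN1A was at 217, 285 and 337 CPM without treatment and at 282, 293 and 459.6 CPM after RSL3 (log2 0.30 ± 0.35 SE, FDR = 0.720). In MM1S cells, it was at 42.4, 116 and 105 CPM without treatment and at 243, 137 and 117 CPM after RSL3 (log2 0.91 ± 0.35 SE, FDR = 0.165), with the largest difference in passage 16.

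BBC3 rose 4.0-fold in MM1R cells, from 19.4, 14.2 and 13.0 CPM to 88.9, 22.8 and 74.9 CPM (FDR = 0.0288), and 3.70-fold in MM1S cells, from 11.1, 16.7 and 12.0 CPM to 90.7, 35.8 and 21.1 CPM (FDR = 0.0369). PMAIP1 rose 4.05-fold in MM1R cells, from 8.93, 7.24 and 7.29 CPM to 30.5, 18.6 and 46.0 CPM (FDR = 0.00931), and 3.01-fold in MM1S cells, from 11.1, 28.1 and 16.2 CPM to 90.3, 39.0 and 38.1 CPM (FDR = 0.0222). In MM1S cells, neither call held without the RSL3 library of passage 16 (log2 1.10 and 1.07, FDR = 0.230 and 0.123), nor when only the MM1S untreated and RSL3 libraries were fitted (log2 1.89 and 1.59, FDR = 0.220 and 0.228). The PMAIP1 call in MM1S cells was also lost without untreated replicate 1 or 3 (FDR = 0.121 and 0.0904). The BBC3 call was lost in MM1R cells without any of the 3 untreated libraries or RSL3 replicate 1 or 3 (FDR = 0.0720 to 0.138) and in MM1S cells also without any of the 3 untreated libraries, Fer-1 and RSL3 replicate 2 or the MM1R untreated replicate 2 (FDR = 0.0509 to 0.157). With Fer-1 and RSL3, PMAIP1 was at 34.8, 31.1 and 33.9 CPM in MM1R and 41.8, 48.7 and 48.9 CPM in MM1S cells, and it was still a DEG against untreated cells in both (4.25-fold and 2.51-fold, FDR = 0.00328 and 0.0418). Without the MM1R Fer-1 library of passage 6, the MM1R difference was 2.13 on the log2 scale (FDR = 0.00970). The MM1S call was lost in 12 of 18 fits that left out a library (FDR = 0.0509 to 0.164).

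Among the paralogs, the third GADD45 gene, GADD45G, had a low level and rose from 1.40, 0.871 and 0.753 CPM to 3.81, 2.76 and 3.76 CPM in MM1R (3.38-fold, FDR = 0.0223) and from 0.880, 1.20 and 1.10 CPM to 9.32, 5.80 and 2.61 CPM in MM1S cells (5.52-fold, FDR = 0.00396). The MM1S call held without the RSL3 library of passage 16 (log2 1.98, FDR = 0.0102) but not when only the MM1S untreated and RSL3 libraries were fitted (log2 2.46, FDR = 0.164). GADD45G was the only DEG of the 14 tested paralogs in each line, where 1.2% and 1.61% of all genes were DEGs, and their median log2 fold change was 0.48 in MM1R and 0.43 in MM1S cells. Averaged over both lines, SESN3, a relative of SESN1, and TP53INP2, a relative of TP53INP1 that acts in autophagy, were DEGs as well (log2 1.05 ± 0.30 and 1.12 ± 0.32 SE, FDR = 0.0247 and 0.0257), which made 3 of 14, against 3.24% of all genes. Without the MM1S RSL3 library of passage 16, neither was a DEG (log2 0.77 and 0.54, FDR = 0.0654 and 0.0448), and their log2 differences in MM1S cells went from 0.91 and 1.55 to 0.35 and 0.39. Other single libraries cost the call as well, in 3 further fits for SESN3 (untreated MM1R replicate 3, MM1S replicates 2 and 3) and 5 for TP53INP2 (MM1R RSL3 replicate 1, untreated MM1R replicates 2 and 3, MM1S replicates 1 and 2). The GADD45G call in MM1R cells was lost without RSL3 replicate 1 or 3 or untreated replicate 2 or 3 (FDR = 0.0663 to 0.0980). With passage as a replicate block, SESN3 was a DEG in MM1R cells (log2 1.20, FDR = 0.000613) and passed the FDR alone in MM1S cells (log2 0.86, FDR = 0.00230), while TP53INP2 over both lines fell short of the fold threshold (log2 0.97, FDR = 0.0182). With Fer-1 and RSL3, SESN3 stood at 66.1, 87.0 and 80.9 CPM in the MM1R line, against 51.5, 50.4 and 51.0 CPM with RSL3. Its untreated levels there were 24.2, 23.7 and 19.0 CPM (3.50-fold against untreated, FDR = 0.0149), and it was a DEG against untreated cells in the MM1S line too (3.07-fold, FDR = 0.0360). With passage as a replicate block, its log2 difference from RSL3 did not pass in MM1R (0.61, FDR = 0.103) or MM1S cells (0.63, FDR = 0.267). Over both lines, that difference passed the FDR alone (0.62, FDR = 0.00975). GADD45G was 3.40-fold above its untreated level in the MM1S line when Fer-1 came before RSL3 (FDR = 0.0138), and with passage as a replicate block it was a DEG in the MM1R line too (log2 1.06, FDR = 0.0463). Without Fer-1 and RSL3 replicate 1, the SESN3 difference in MM1S cells was 0.85 on the log2 scale (FDR = 0.236), and it was also lost without untreated MM1S replicate 2 or 3 or MM1R replicate 2 (FDR = 0.0514 to 0.150). In MM1R cells, SESN3 differed by 1.72 on the log2 scale without the Fer-1 library of passage 6 (FDR = 0.0485). The MM1R call for SESN3 was lost without untreated replicate 2 or 3 (FDR = 0.0516 and 0.0657). The MM1S call for GADD45G was lost without untreated replicate 1 or 3 or Fer-1 and RSL3 replicate 2 of MM1S cells (FDR = 0.0529 to 0.0721).

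**Figure D4:**
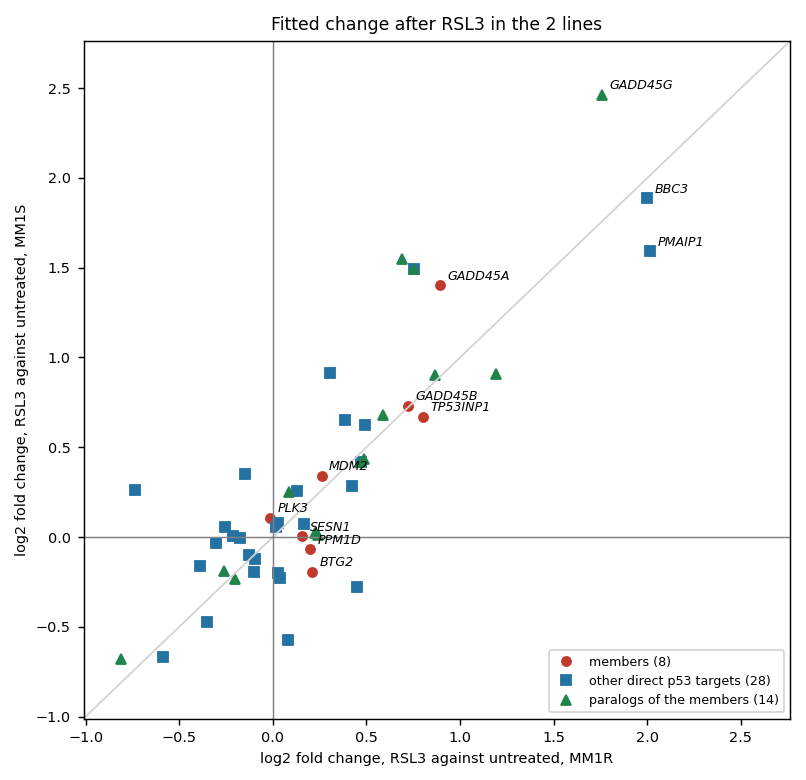
Fitted log2 fold change after RSL3 in MM1R cells (x axis) and in MM1S cells (y axis) for the 8 tested members, 28 other direct p53 targets and 14 paralogs, with the line of equal change. GADD45A lies at 0.89 and 1.40, while BBC3, PMAIP1 and GADD45G, the DEGs of the 2 other lists, lie further from 0 than any member.

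Between the untreated lines, the list of other p53 targets held 4 DEGs of 28, against 4.64% of all genes. The 4 are named here after their values were seen. CDKN1A was higher in MM1R cells (280 ± 60.0 against 87.9 ± 39.8 CPM, 3.18-fold, FDR = 0.00764), as were TNFRSF10B, a death receptor (78.8 ± 8.56 against 39.2 ± 2.55 CPM, 2.01-fold, FDR = 0.000244), and PHLDA3, an inhibitor of AKT (25.1 ± 8.77 against 2.99 ± 0.852 CPM, 8.38-fold, FDR = 2.1e-05; SD, n = 3). PMAIP1 was lower, with 7.82 ± 0.960 against 18.5 ± 8.73 CPM (log2 -1.24, FDR = 0.0417), and this call was lost in 9 of 18 fits that left out a library (log2 -0.79 without MM1S replicate 2). The list's median was 0.19 on the log2 scale, beside -0.01 for all genes. Neither the regulators (0 of 10) nor the paralogs (0 of 14) held a DEG between the lines. They held 2 and 1 genes at an unadjusted edgeR p under 0.05, against 24.8% of all genes.

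Across the 18 libraries, the genes whose log2 CPM followed GADD45A most closely were IBA57 (Pearson r = 0.937), which takes part in iron-sulfur cluster assembly, SRXN1 (0.936), which repairs oxidized peroxiredoxins, and RHBDD3 (0.925). Of the other members, TP53INP1 was the most like GADD45A (r = 0.653), while BTG2 had the lowest value (r = -0.308). BTG2 was most like MDM2 (r = 0.639) and SESN1 (r = 0.608). These values describe libraries that share lines, treatments and passages, and carry no test.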

How the data were processed

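RNA was sequenced in 18 libraries of MM1R and MM1S cells. Per the labels and the study's methods, the authors checked reads with FastQC 0.11.5 and aligned them to hg19 with STAR 2.7.3a. They deposited raw counts for 43735 genes and a normalized table for 29553 genes, whose signal values are counts divided by 1 size factor per library (0.834 to 1.08). The counting tool, annotation and use of strand are not given in the sources used here, and they decide how overlapping genes and paralogs share reads.

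Genes were filtered with filterByExpr (minimum count 10, 14281 kept, 99.9% of counts), scaled by TMM (0.864 to 1.06) and fitted with edgeR 4.0.16 in R 4.3.3 as 6 group means over all 18 libraries (12 residual degrees of freedom), with Benjamini-Hochberg adjustment over all tested genes. DEGs passed an FDR of 0.05 and differed by more than 1 on the log2 scale. "Rose" and "fell" are used for an FDR under 0.05. DESeq2 1.42.0, limma 3.58.1 on log2(normalized value + 1), other scalings and filters, only the groups compared, and leaving out each library were alternatives. The steps were tested on simulated data. The members and lists were chosen with earlier results of these data known. The lists' genes named are their DEGs after RSL3, at most 8 per list, with exceptions marked. Log2 CPM for correlations and passages used a prior count of 2. Exon lengths and positions came from an hg19 gene annotation joined by symbol.

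Replicate numbers stand for passages in the labels and pair libraries within a line. Deviations of same-passage libraries from their group means correlated at a median of 0.250 in MM1R (0.0338 to 0.516, 9 pairs) and 0.416 in MM1S cells (9 pairs, 0.216 to 0.681). The fit in which passage was a replicate block left 8 residual degrees of freedom.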

Additional observations from a re-analysis of the deposited data

How the results depend on the processing

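Of 2002 log2 fold changes recomputed under the alternatives, 1920 kept their direction and their side of the thresholds, 17 became calls, 26 lost the call and 39 changed sign. Of 270 counts of DEGs among the members, 252 were the same. With the FDR and no fold threshold, the member count was 2 after RSL3 in MM1R, in MM1S and over both lines, 3 and 2 for Fer-1 and RSL3 against untreated cells in MM1R and MM1S, 1 for Fer-1 and RSL3 against RSL3 over both lines and 2 between the untreated lines. DESeq2 gave 1 member for Fer-1 and RSL3 against RSL3 over both lines, and no filter on low counts gave 1 there and 1 in MM1R cells, GADD45B each time. With only the groups compared, the count after RSL3 in MM1S cells was 0. Signs changed for SESN1 after RSL3 in MM1S cells (-0.00113 with DESeq2, -0.00128 with RLE scaling and -0.00634 with no filter) and for BTG2 after RSL3 over both lines (-0.000725 with no filter). The cause was not tested.

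Leaving out each library gave 0 to 1 members for RSL3 in MM1R, for Fer-1 and RSL3 against RSL3 in MM1R and over both lines, and between the untreated lines. The log2 fold changes that changed sign in such fits ranged as follows. After RSL3 in MM1R cells, PLK3 went from -0.103 to 0.0667, SESN1 from -0.00340 to 0.309 and MDM2 from -0.0473 to 0.417. After RSL3 in MM1S cells, PLK3 went from -0.0116 to 0.291, SESN1 from -0.0668 to 0.0925 and GADD45B from -0.148 to 1.05, and BTG2 over both lines from -0.0356 to 0.0501. For Fer-1 and RSL3 against RSL3 in MM1R cells, PLK3 went from -0.142 to 0.0474, MDM2 from -0.356 to 0.276, PPM1D from -0.188 to 0.00998 and PMAIP1 from -0.199 to 0.425. In MM1S cells, PLK3 went from -0.216 to 0.113, GADD45A from -0.213 to 0.00787, SESN1 from -0.129 to 0.0190, SESN3 from -0.0595 to 1.27 and PMAIP1 from -0.473 to 0.269, and MDM2 over both lines from -0.275 to 0.0414. Against untreated cells, MDM2 with Fer-1 and RSL3 in MM1R cells went from -0.0910 to 0.431. Between the untreated lines, TP53INP1 went from -0.0891 to 0.184 and GADD45B from -0.126 to 0.149.

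Over all genes, the 171 and 230 DEGs after RSL3 in MM1R and MM1S cells were 271 and 332 with DESeq2, 431 and 517 with no filter, 410 and 387 with the replicate block and 238 and 3 with only the groups compared. For Fer-1 and RSL3 against RSL3 in MM1R, in MM1S and over both lines, the 0, 0 and 8 DEGs were 17, 5 and 61 with DESeq2, 134, 151 and 169 with no filter, 12, 5 and 53 with the replicate block, and 0, 0 and 3 with limma, and 0 over both lines with only the groups compared. The 309 and 195 against untreated cells were 502 and 378 with no filter and 521 and 383 with the replicate block, and the 662 between the untreated lines were 1034 with it. No filter gave 27 for the interaction. The replicate block changed no member count of DEGs and no FDR call of a member other than those given beside the results. With 3 libraries a group, GADD45B and MDM2 had standard errors of 0.38 and 0.24 on the log2 scale within a line, and changes of up to 1.15 and 0.34 on that scale did not pass the FDR for them.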
